A study of Sus scrofa with 9 samples.

Results

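Of the 22629 rows of a pig heart expression table, 9 genes that write, maintain or remove DNA methylation were examined. They were taken by exact gene symbol: UHRF1, UHRF2, HELLS, DNMT1, DNMT3A, DNMT3B, TET1, TET2 and TET3, and each symbol had 1 row. The values came from RNA sequencing of left ventricular myocardium of wild type pigs (Sus scrofa) that received no treatment, on postnatal day 0 (P0), day 7 (P7) and day 15 (P15), with 3 libraries per age and 9 in all. The labels number the replicates 4, 5 and 6 on day 0, 2, 5 and 6 on day 7, and 1, 2 and 6 on day 15, and a library is named here by its age and that number. Nothing in the labels ties each library to an animal of its own, so p-values measure only the spread between these samples, which may be technical.

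In mammals, DNA replication leaves each methylated CpG methylated on the parental strand alone. UHRF1 binds such sites and ubiquitinates histone H3, which recruits DNMT1, the methyltransferase that copies the mark to the daughter strand, while the chromatin remodeller HELLS gives access to compact regions. DNMT3A and DNMT3B methylate sites that carried no mark, and the TET dioxygenases oxidise methylcytosine, which starts its removal. Heart muscle cells of newborn mammals leave the cell cycle in the weeks around birth, so the genes that act at the replication fork and those that act in cells that no longer divide can be followed side by side in this tissue.

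Values are transcript abundances scaled for length and library total (TPM), from which the sequencing depth cannot be read. Each library listed 11290 to 12164 rows at 1 TPM or more, and 1 unnamed gene took 24.0% to 46.0% of a library's TPM. Ventricular cardiomyocyte markers summed to 54775 to 60978 TPM on day 0, 41608 to 53862 TPM on day 7 and 43439 to 46855 TPM on day 15. Day 0 replicate 5 stood apart from the other newborn libraries: its summed level of 31 DNA replication (S phase) genes was 250.4 TPM against 125.3 and 155.0 TPM, and that of 15 mitosis genes was 198.3 TPM against 44.6 and 53.2 TPM. The same library had the highest summed atrial markers of all 9 (2968 TPM, against 572 and 843 TPM in the other newborn libraries) and the highest NPPA, the atrial natriuretic peptide gene, at 2087 TPM. Day 7 replicate 5 was also high in atrial markers, at 2334 TPM. Summed erythroid markers were highest in day 0 replicate 5 as well, at 1267 TPM against 525 and 395 TPM in the other newborn libraries. Day 7 replicate 2 followed at 1219 TPM. Where leaving out day 0 replicate 5 changed a contrast or permutation call on the 9 genes, the value without it is given as well. For the F test over the ages only the count of members without it is given. In bulk tissue, fewer cells of a type and less RNA per cell cannot be told apart.

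UHRF1 had the largest log2 difference between ages of the members tested. In the libraries of day 0 (replicates 4, 5 and 6) it stood at 0.781, 4.60 and 1.38 TPM, on day 7 (replicates 2, 5 and 6) at 15.2, 7.96 and 11.3 TPM, and on day 15 (replicates 1, 2 and 6) at 3.92, 3.61 and 3.86 TPM. Every day 7 library lay above every other library, and the day 15 values fell between the highest newborn value and the others. The newborn libraries differed 5.88-fold among themselves (coefficient of variation 91.1%), the day 7 libraries 1.92-fold (31.7%) and the day 15 libraries 1.08-fold (4.29%).

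From a mean of 2.25 ± 2.05 TPM on day 0 (SD, n = 3), UHRF1 reached 11.5 ± 3.65 TPM on day 7 (SD, n = 3), a log2 fold change of TPM + 1 of 2.08 with a standard error of 0.35 (95% interval 1.31 to 2.84, adjusted p = 0.00540, limma over all 12268 genes tested). Only 14 of the 12268 genes had a larger log2 fold change in that week, and 8 of those passed the test. The call held in all 21 alternative settings, with log2 fold changes of 1.20 to 2.62 and adjusted p-values up to 0.0380. Without day 0 replicate 5 the rise was 2.56 on the log2 scale.

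The difference from day 7 to day 15 was -1.34 on the log2 scale (standard error 0.35, 95% interval -2.10 to -0.58) and did not pass the test (limma, adjusted p = 0.179). The contrast of the first step (day 0 to day 7) minus the second step (day 7 to day 15), which share the day 7 libraries, was 3.42 with a standard error of 0.61 and passed it (limma, adjusted p = 0.0261). Without day 0 replicate 5, day 15 lay below day 7 (-1.34 on the log2 scale, limma adjusted p = 0.0313) and above day 0 (1.22, limma adjusted p = 0.00675). With all libraries the difference of day 15 from day 0 was 0.74 and did not pass (95% interval -0.03 to 1.50, limma adjusted p = 0.141). The contrast of the steps did not pass in limma fits without day 0 replicate 4 (adjusted p = 0.0542), day 0 replicate 6 (0.0693), day 7 replicate 2 (0.129) or day 7 replicate 6 (0.0911).

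UHRF2, a paralog that binds methylated and hydroxymethylated DNA and is not known to replace UHRF1 in maintenance, differed far less between libraries. It stood at 5.74, 6.20 and 7.00 TPM on day 0, at 7.07, 7.86 and 7.45 TPM on day 7, and at 5.32, 6.54 and 5.82 TPM on day 15. The day 7 libraries lay above all others by a small margin, and the mean difference of day 7 from day 0 was 0.21 on the log2 scale with a 95% interval of -0.14 to 0.57 (limma, adjusted p = 0.374). UHRF2 passed none of the limma contrasts, and its adjusted p over the 3 ages was 0.331 (limma F test).

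The order of the pair turned with age. UHRF1 was higher than UHRF2 in 3 of 3 libraries of day 7 and in 0 of the 6 others, with a ratio of TPM of 1.01 to 2.16 on day 7, 0.136 to 0.742 on day 0 and 0.552 to 0.736 on day 15. UHRF1 made up 23.7 ± 16.5% of the summed TPM of the pair on day 0, 59.6 ± 9.01% on day 7 and 39.3 ± 3.45% on day 15 (SD, n = 3 each). In an exact permutation test over the 3 ages the p was 0.0214, and after Benjamini-Hochberg adjustment over 7 such within-library values it was 0.05, which is not below the threshold. Without day 0 replicate 5 the adjusted p of the exact permutation test was 0.0125. With any other library left out instead it did not pass, from 0.05 (day 7 replicate 5) to 0.192 (day 7 replicate 2). A share within a library does not depend on how the library total is scaled.

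**Figure D1:**
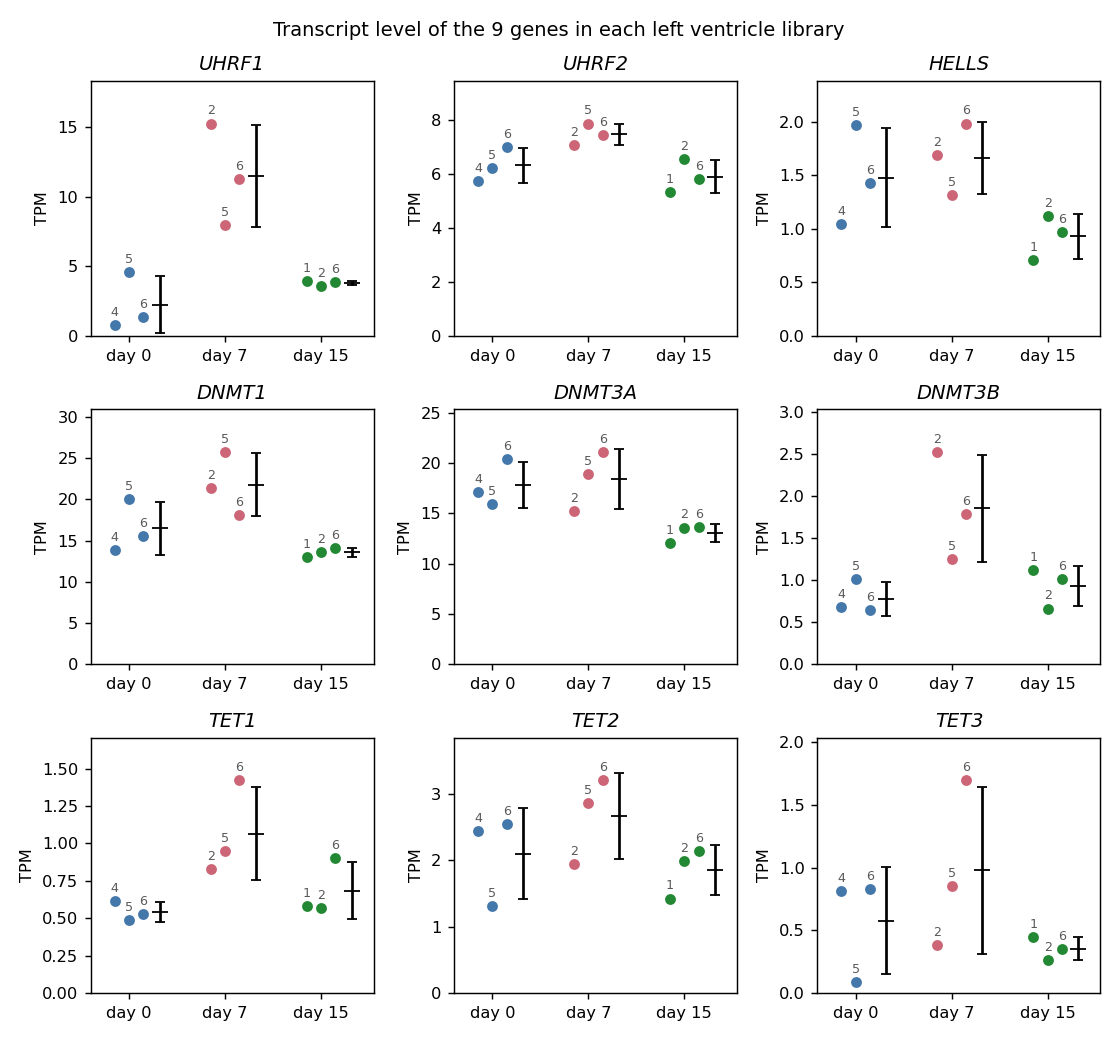
Transcript level (TPM, linear axis from 0) of each of the 9 genes by postnatal day. Each point is 1 library with its replicate number above it, and the black bar is the mean with 1 SD (n = 3). All UHRF1 points of day 7 lie at 7.96 TPM or more and all others at 4.60 TPM or less, while the DNMT3A points of day 0 and day 7 overlap.

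DNMT1, the maintenance methyltransferase, was among the most abundant of the 9 genes at every age. Its libraries stood at 13.9, 20.1 and 15.5 TPM on day 0, at 21.4, 25.7 and 18.1 TPM on day 7, and at 13.1, 13.6 and 14.1 TPM on day 15. The day 0 and day 7 ranges overlapped through day 0 replicate 5, and all day 15 libraries lay below all day 7 libraries. Means were 16.5 ± 3.20, 21.7 ± 3.82 and 13.6 ± 0.518 TPM (SD, n = 3 each).

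The DNMT1 difference of day 7 from day 0 was 0.38 on the log2 scale, with a 95% interval of -0.03 to 0.79 (limma, adjusted p = 0.174), and that of day 15 from day 7 was -0.63 (limma, adjusted p = 0.225). The first of these passed the test under quantile normalization (limma, adjusted p = 0.0372) and when TPM were rescaled without mitochondrial and the 20 most abundant genes (0.56 on the log2 scale, limma adjusted p = 0.0272). The difference of day 15 from day 0, -0.25 with the deposited values, was -0.02 after median-of-ratios scaling.

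HELLS, the remodeller, was low at every age. It stood at 1.04, 1.97 and 1.43 TPM on day 0, at 1.69, 1.32 and 1.98 TPM on day 7, and at 0.707, 1.12 and 0.967 TPM on day 15. The first 2 ages overlapped, and day 15 lay below day 7 without overlap. No limma contrast of HELLS passed, with log2 differences of 0.11 in the first step (adjusted p = 0.708) and -0.46 in the second step (adjusted p = 0.352).

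DNMT3A, which together with DNMT1 held most of the methyltransferase transcripts, did not follow UHRF1 in the first step. Its libraries stood at 17.1, 15.9 and 20.4 TPM on day 0, at 15.2, 18.9 and 21.1 TPM on day 7, and at 12.0, 13.6 and 13.6 TPM on day 15. Day 0 and day 7 overlapped, and the 3 lowest values were the day 15 libraries. From day 7 to day 15 the difference was -0.45 on the log2 scale and did not pass (limma, adjusted p = 0.322). The day 7 difference from day 0 was 0.04 on the log2 scale with a 95% interval of -0.34 to 0.43 (limma, adjusted p = 0.891), and the day 15 difference from day 0 was -0.41 (limma, adjusted p = 0.107). The latter was -0.19 once the values were scaled by median of ratios.

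DNMT3B, the other de novo methyltransferase, was near 1 TPM. It stood at 0.678, 1.01 and 0.647 TPM on day 0, at 2.53, 1.26 and 1.79 TPM on day 7, and at 1.12, 0.666 and 1.02 TPM on day 15. The day 7 libraries lay above all others. Its mean rose 2.38-fold, from 0.780 ± 0.203 to 1.86 ± 0.638 TPM (SD, n = 3 each), a log2 fold change of TPM + 1 of 0.67 with a standard error of 0.20 (95% interval 0.23 to 1.11, limma adjusted p = 0.0434). The log2 differences from day 7 to day 15 (-0.55, limma adjusted p = 0.298) and from day 0 to day 15 (0.12, limma adjusted p = 0.694) did not pass. The rise was lost in 9 of 20 alternative settings, among them limma fits without day 0 replicate 4 (adjusted p = 0.126), day 0 replicate 6 (0.150), day 7 replicate 2 (0.147), day 7 replicate 6 (0.102) or day 15 replicate 6 (0.0613).

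DNMT3A exceeded DNMT3B in 9 of 9 libraries, by 15.7 to 31.5 times on day 0, 6.01 to 15.1 times on day 7 and 10.7 to 20.4 times on day 15. DNMT1 and DNMT3A stood close together, with DNMT1 higher in 5 of 9 libraries and a ratio of 0.763 to 1.41. DNMT1 took 46.9 ± 6.41%, 51.6 ± 6.50% and 49.2 ± 0.531% of the summed TPM of the 3 methyltransferases on day 0, day 7 and day 15 (SD, n = 3 each; exact permutation test over the ages, p = 0.461, adjusted p = 0.645).

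TET2 was the highest of the dioxygenase genes in 9 of 9 libraries. It stood at 2.43, 1.31 and 2.54 TPM on day 0, at 1.95, 2.85 and 3.20 TPM on day 7, and at 1.42, 1.98 and 2.14 TPM on day 15. The 3 ages overlapped, and the log2 differences were 0.26 in the first step (limma, adjusted p = 0.432) and -0.36 in the second step (limma, adjusted p = 0.513).

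TET1 and TET3 did not reach 1 TPM in 3 libraries and were left out of the test across genes. TET1 stood at 0.615, 0.487 and 0.526 TPM on day 0, at 0.829, 0.949 and 1.42 TPM on day 7, and at 0.581, 0.569 and 0.904 TPM on day 15. Its day 7 libraries lay above its newborn libraries but overlapped with day 15. With no filter on low values (18573 genes) its difference of day 7 from day 0 was 0.41 on the log2 scale (limma, adjusted p = 0.0832).

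TET3 differed 9.41-fold among the newborn libraries, the widest ratio within an age of the 9 genes. It stood at 0.815, 0.0880 and 0.828 TPM on day 0, at 0.380, 0.854 and 1.69 TPM on day 7, and at 0.445, 0.263 and 0.348 TPM on day 15. Day 0 replicate 5, the newborn library with the highest UHRF1, DNMT1 and HELLS, had the lowest TET3 of all 9 and the lowest TET2. With no filter the TET3 difference of day 7 from day 0 was 0.31 on the log2 scale (limma, adjusted p = 0.495). TET3 took 15.7 ± 9.53%, 19.1 ± 7.41% and 12.6 ± 4.86% of the summed TET transcripts on the 3 ages (SD, n = 3 each; exact permutation test, p = 0.593, adjusted p = 0.692).

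**Figure D2:**
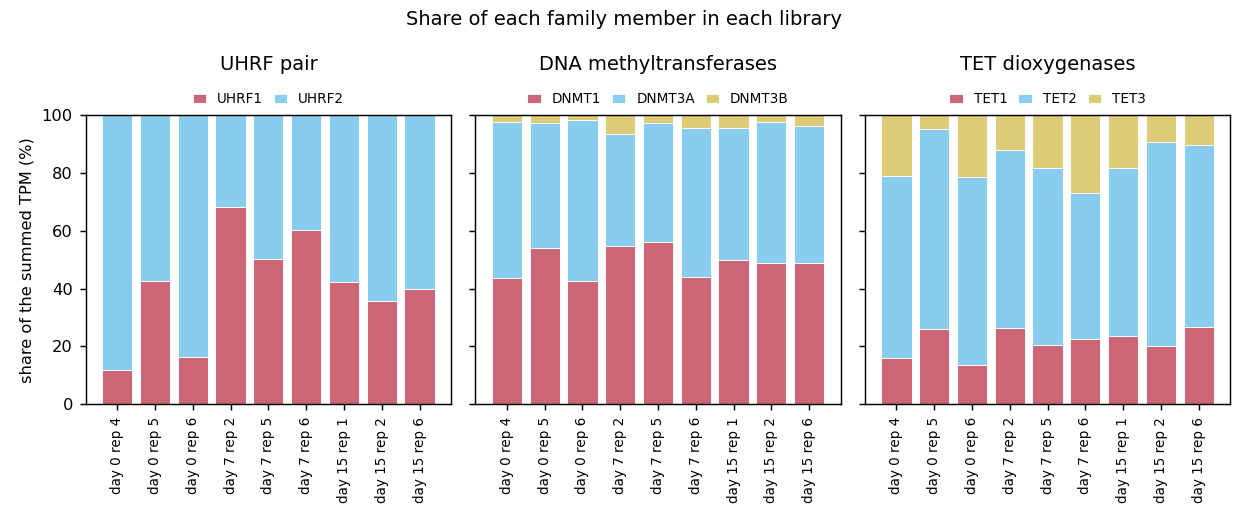
Share of each family member in the summed TPM of its family (%), 1 bar per library. UHRF1 holds more than UHRF2 in the 3 day 7 libraries only, DNMT1 takes 42.5% to 56.0% and DNMT3A 38.8% to 55.7% of the methyltransferases, and TET2 holds the largest share of the dioxygenases in 9 of 9 libraries.

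By mean level per length, DNMT3A and DNMT1 led at every age and their ranges overlapped with each other. UHRF2 came next on day 0 and day 15, without overlap with its neighbours in that order. On day 7 UHRF1 took the third place at 11.5 TPM, overlapping DNMT3A (18.4 TPM) and lying above UHRF2 (7.46 TPM) without overlap. HELLS, DNMT3B, TET1 and TET3 made up the low end at every age, at mean levels from 0.352 to 1.86 TPM. The summed TPM of the 9 genes was 43.1, 51.7 and 50.3 on day 0, 66.3, 67.7 and 68.0 on day 7, and 38.6, 41.9 and 42.8 on day 15.

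Of the 7 members tested, 2 rose from day 0 to day 7 (UHRF1 and DNMT3B) and 0 fell, where 16.6% of all genes tested changed and 7.67% rose. The 3 libraries of day 7 lay above the 3 of day 0 for UHRF1, UHRF2 and DNMT3B, 3 of 7 members, against 17.6% of all genes, and after median-of-ratios scaling for these and DNMT1, 4 of 7, against 23.2%. All 7 log2 differences of that step were above 0 (median 0.26, against -0.04 over all genes tested). From day 7 to day 15, 0 of 7 passed in limma and 5 of 7 had an unadjusted p below 0.05 (UHRF1, DNMT1, DNMT3A, DNMT3B and HELLS). Over all genes the shares were 0.171% at the adjusted and 12.8% at the unadjusted threshold. All 7 differences of that step were below 0, with a median of -0.46 against -0.15 over all genes. From day 0 to day 15, 0 of 7 passed in limma and 1 had an unadjusted p below 0.05 (DNMT3A), where the shares over all genes were 23.9% and 39.0%. With the deposited TPM, the day 15 libraries lay below the newborn ones for 1 of 7, DNMT3A, against 30.5% of all genes, and for DNMT3A they were also the lowest of all 9, which held for 7.52% of genes. After median-of-ratios scaling this was no longer so for DNMT3A. HELLS was then the 1 member with day 15 below day 0 (23.9% of all genes) and with day 15 lowest of all (3.86%), and UHRF2 the 1 with day 15 above day 0 (22.6%). The median log2 difference of that comparison with the deposited TPM was -0.10 for the members and -0.19 for all genes. After median-of-ratios scaling the median of all genes was 0.007.

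**Figure D3:**
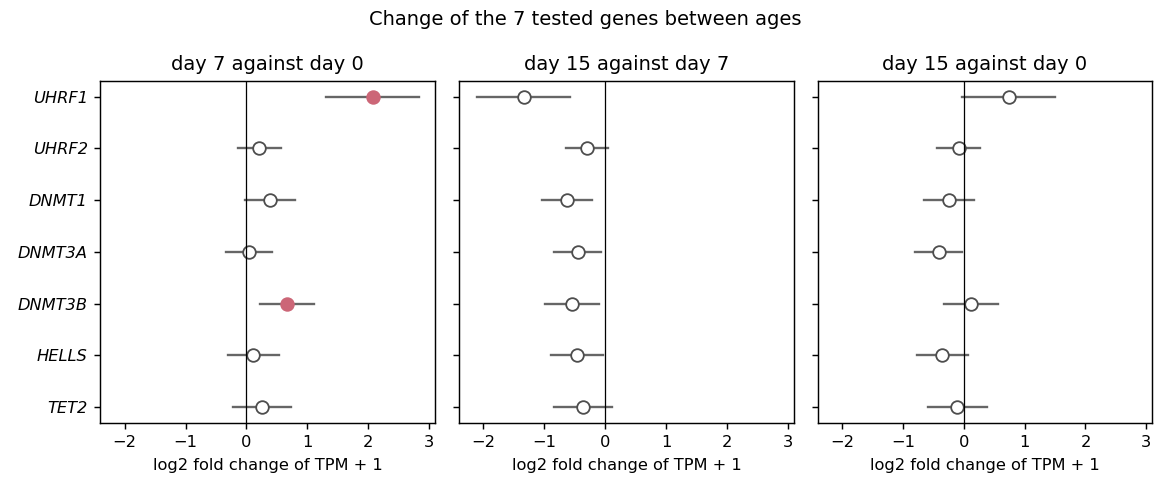
Log2 fold change of TPM + 1 between ages for the 7 genes tested, with 95% intervals from limma. Filled points passed the test after adjustment over all 12268 genes. UHRF1 (2.08) and DNMT3B (0.67) on day 7 against day 0 are the filled points, and none is filled in the other comparisons.

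The contrast between the steps passed for 1 of 7 members, UHRF1, where 1.92% of all genes passed, and the test over the 3 ages for the same gene, where 22.0% of all genes passed. Without regard to a model, all day 15 libraries lay below all day 7 libraries for 6 of the 7 members, TET2 being the exception, and for 17.9% of all genes. The deposited TPM of a typical gene were lower on day 15, and after median-of-ratios scaling, which sets that shift to about 0, the count was 3 of 7 (UHRF1, DNMT1 and HELLS) against 10.3% of all genes. All day 7 libraries lay above all others for 3 of 7 members (UHRF1, UHRF2 and DNMT3B) against 6.15% of genes, and after that scaling for 2 (UHRF1 and DNMT1) against 4.32%.

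Cell cycle genes moved in the same direction in the first week. Of 31 S phase genes, 19 rose from day 0 to day 7 and 0 fell (median log2 fold change 0.84), and of 15 mitosis genes 10 rose and 0 fell (median 1.40). These were 61.3% and 66.7% of the lists, where 16.6% of all genes changed. TYMS, which makes thymidylate for DNA synthesis, was the only S phase gene with a larger rise than UHRF1, from 2.99 ± 2.81 to 22.5 ± 7.72 TPM (SD, n = 3 each; 2.72 on the log2 scale, limma adjusted p = 0.00326). Leaving out each library in turn gave 5 to 25 S phase genes and 2 to 15 mitosis genes that rose, and without day 0 replicate 5 the counts were 25 and 15. From day 7 to day 15 in limma, 0 of the 31 and 0 of the 15 passed, with medians of -0.82 and -0.78. Of all genes, 0.171% passed in that step.

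Each maintenance gene was also set against the S phase genes of its own library, as log2(TPM + 1) minus the median of the 31. UHRF1 stood at -0.998, -0.365 and -1.014 on this scale on day 0, at 0.48, 0.04 and 0.56 on day 7, and at -0.11, -0.23 and -0.12 on day 15. The ages did not overlap: UHRF1 lay below the S phase median in every newborn and every day 15 library and above it in every day 7 library. The exact permutation test over the 3 ages gave p = 0.00357, the smallest it can give, and an adjusted p of 0.025 over the 7 within-library values. Its adjusted p was at or above the threshold without day 0 replicate 6 (0.05), day 7 replicate 2 (0.125), day 7 replicate 6 (0.1) or any day 15 replicate (0.0875 without replicate 1, 0.113 without replicate 2 and 0.1 without replicate 6). The difference of day 7 from day 0 on this scale was 1.04 to 1.37 over the 9 omissions.

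DNMT1 and HELLS had lower means on day 7 than on day 0 on that scale. DNMT1 stood 1.80 ± 0.26 above the S phase median on day 0, 1.25 ± 0.34 on day 7 and 1.45 ± 0.06 on day 15 (SD, n = 3 each; exact permutation test, p = 0.0964, adjusted p = 0.169). HELLS stood at -1.02 ± 0.24, -1.84 ± 0.32 and -1.47 ± 0.15 (SD, n = 3 each), lowest on day 7, with p = 0.0143 and an adjusted p of 0.05 in the exact permutation test, which is not below the threshold. Without day 0 replicate 5 the adjusted p of HELLS was 0.0417 (exact permutation test). With any other library left out it did not pass, from 0.05 (day 7 replicate 5 or 6) to 0.175 (day 0 replicate 4). With a pseudocount of 0.1 it was 0.1. The adjusted p of DNMT1 in that test was 0.0375 without day 7 replicate 5, and 0.0938 to 0.406 over the other omissions. Every day 7 value of HELLS was below every newborn value.

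**Figure D4:**
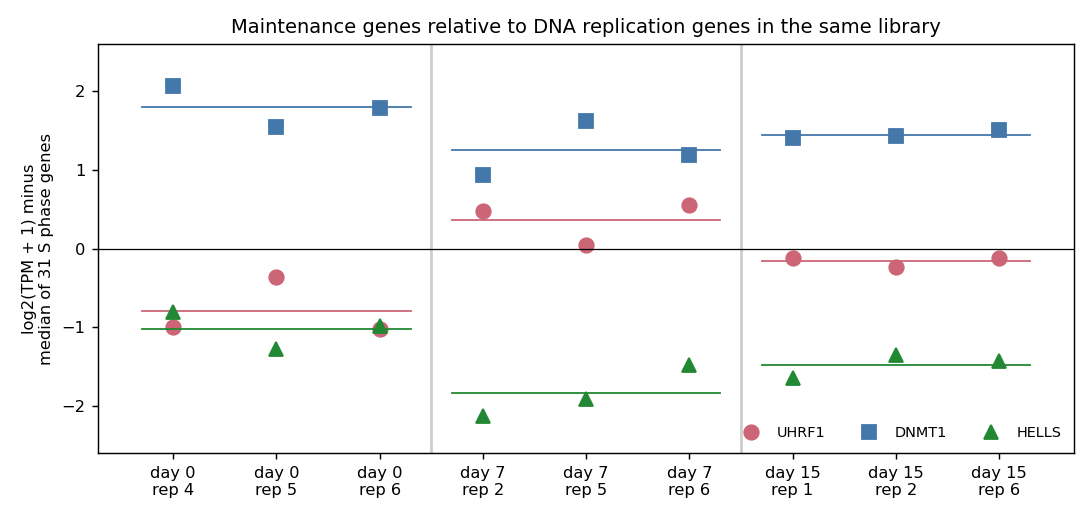
Log2(TPM + 1) of UHRF1, DNMT1 and HELLS minus the median of 31 S phase genes in the same library, 1 point per library, with the mean of each age as a line. UHRF1 lies above 0 in the day 7 libraries only, and HELLS is lower on day 7 (-1.84 on average) than on day 0 (-1.02).

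The genes most like UHRF1 were those with the smallest root mean square difference from it, after each gene's log2(TPM + 1) was centred over the 9 libraries. They were TCF19 (0.186 log2 units), KIFC1 (0.242), E2F1 (0.251), TK1 (0.271) and KIF22 (0.277), where the deviation of UHRF1 from its own mean was 0.972. E2F1 encodes a transcription factor of the transition into S phase, TK1 a kinase of the thymidine salvage route, and KIFC1 and KIF22 kinesins of the spindle and chromosomes. TCF19, the nearest, stood at 1.01, 6.89 and 2.04 TPM on day 0, at 15.1, 8.44 and 10.2 TPM on day 7, and at 4.03, 4.64 and 4.75 TPM on day 15. Its highest newborn value was, as for UHRF1, that of replicate 5, a library that was among those used to pick it.

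Among 14 partners of maintenance (factors that bind, recruit or regulate UHRF1 and DNMT1 at the fork), 3 rose and 1 fell from day 0 to day 7, with a median of 0.09 against -0.04 over all genes. The share called was 28.6% of the list against 16.6% of all genes. Of the 3 that rose, LIG1 and PCNA are also among the 31 S phase genes, so the counts of these lists are not separate. LIG1, the ligase that joins fragments of the lagging strand, stood at 3.28, 6.35 and 4.33 TPM on day 0, at 13.7, 9.47 and 9.69 TPM on day 7, and at 5.65, 6.06 and 5.58 TPM on day 15. It rose by 1.10 on the log2 scale (SE 0.22, limma adjusted p = 0.00930). PCNA, the sliding clamp, rose by 0.62 (limma, adjusted p = 0.0491), and PCLAF, which binds PCNA, by 1.75 (limma, adjusted p = 0.0451), with newborn values of 0.450, 7.37 and 1.16 TPM. KAT5, an acetyltransferase, fell by 0.62 (limma, adjusted p = 0.0347). In limma, LIG1 and PCNA also passed the contrast between the steps, while CDCA7, the partner that targets HELLS to chromatin, had a day 7 difference of 0.80 that did not pass (adjusted p = 0.0612).

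From day 7 to day 15, 0 of these 14 passed in limma, where 0.171% of all genes passed. From day 0 to day 15, 0 rose and 2 fell, which is 14.3% of the list against 23.9% of all genes. The 2 were KAT5 (-0.83) and TRIM28, a corepressor of repeats and the most abundant of the list. TRIM28 went from 40.2 ± 5.77 to 23.7 ± 3.28 TPM (SD, n = 3 each, limma adjusted p = 0.0143).

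Of 11 tested partners of de novo methylation, 3 rose in the first week and 0 fell, which is 27.3% of the list against 16.6% of all genes. EZH2, the catalytic subunit of Polycomb repressive complex 2 in dividing cells, stood at 2.65, 5.94 and 4.31 TPM on day 0, at 9.89, 6.88 and 7.84 TPM on day 7, and at 3.45, 3.41 and 3.89 TPM on day 15, and every day 7 library lay above all others. Its rise was 0.83 on the log2 scale (limma, adjusted p = 0.0312). EZH1, its paralog of non-dividing cells, rose by 0.76 (limma, adjusted p = 0.0240) and NSD2, which dimethylates histone H3 lysine 36, by 0.68 (limma, adjusted p = 0.0275). SETDB1, a histone H3 lysine 9 methyltransferase, was the only gene of the 11 past the test from day 0 to day 15 (-0.61, limma adjusted p = 0.0254). The share called was 9.09% of the list against 23.9% of all genes. DNMT3L, the cofactor of DNMT3A without catalytic activity, stood at 0.461 to 1.78 TPM and did not pass the filter on low values.

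Of 14 tested readers of CpG methylation and of unmethylated CpG, 0 passed in the first or the second step (limma). Of all genes, 16.6% and 0.171% passed in those steps. From day 0 to day 15, 0 rose and 3 fell, which is 21.4% of the list against 23.9% of all genes (median -0.23 against -0.19), and MBD4 and MBD3 were among the 3. MBD4, a glycosylase that binds methylated CpG, stood at 4.40, 4.41 and 4.38 TPM on day 0, at 2.92, 3.52 and 3.15 TPM on day 7, and at 1.93, 2.29 and 2.37 TPM on day 15, with no overlap between ages. Its day 15 difference from day 0 was -0.76 (limma, adjusted p = 0.00783). MBD3, the most abundant reader (69.1 ± 9.84 to 44.0 ± 7.67 TPM, SD, n = 3 each), changed by -0.65 (limma, adjusted p = 0.0268).

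The base excision list covers a repair route that can replace oxidised methylcytosine with cytosine, and not all of its genes act on that base. It split in the first week, with 3 of 16 up and 3 down. The share called was 37.5% of the list against 16.6% of all genes. NEIL3, a glycosylase of dividing cells, stood at 0.257, 0.634 and 0.333 TPM on day 0, at 2.31, 1.79 and 1.95 TPM on day 7, and at 0.677, 0.794 and 0.896 TPM on day 15. It rose by 1.11 on the log2 scale (limma, adjusted p = 0.00431). NEIL3 reached 1 TPM only in the day 7 libraries, so it entered the test only through the age at which it was high. Its entry and its rise are therefore not separate results. PARP1, which marks strand breaks, rose by 1.31 (limma, adjusted p = 0.0103) and UNG, the uracil glycosylase, by 0.93 (limma, adjusted p = 0.0312).

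The 3 that fell were TDG, GADD45A and POLB. TDG, the glycosylase that cuts out formylcytosine and carboxylcytosine, stood at 7.95, 6.56 and 9.16 TPM on day 0, at 4.01, 4.57 and 4.88 TPM on day 7, and at 2.60, 4.90 and 4.18 TPM on day 15. It fell by 0.69 on the log2 scale in the first week (limma, adjusted p = 0.0434). GADD45A, a stress-induced gene linked to demethylation, went from 28.1 ± 3.38 to 8.61 ± 1.22 TPM (SD, n = 3 each), a log2 change of -1.60 (limma, adjusted p = 0.00079), and POLB, the gap-filling polymerase, fell by 0.81 (limma, adjusted p = 0.0221). From day 0 to day 15, 1 of the 16 rose (PARP1) and 6 fell, among them GADD45G, the most abundant of the list (60.8 ± 16.6 to 15.4 ± 5.60 TPM, SD, n = 3 each). The share called was then 43.8%, against 23.9% of all genes.

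The supply of methyl groups and of TET cofactors was covered by a pair of lists. Of 14 tested genes of the methyl donor cycle, 0 rose and 1 fell from day 0 to day 7 and 0 rose and 5 fell from day 0 to day 15. These shares, 7.14% and 35.7%, compare with 16.6% and 23.9% of all genes. MAT2A, which makes S-adenosylmethionine, was the most abundant of the 14. It stood at 136.2, 109.4 and 160.5 TPM on day 0, at 93.2, 106.0 and 77.4 TPM on day 7, and at 64.3, 91.9 and 80.5 TPM on day 15. Its day 15 difference from day 0 was -0.77 (limma, adjusted p = 0.0189). GNMT, which consumes S-adenosylmethionine, went from 2.59 ± 0.124 to 1.08 ± 0.207 TPM (SD, n = 3 each) in the first week (-0.79, limma adjusted p = 0.0108).

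Of 17 genes that make or use 2-oxoglutarate or its competitors, 0 rose and 3 fell in the first week (IDH3A, IDH3B and SDHD, by 0.77, 0.61 and 0.58), and 1 rose and 4 fell from day 0 to day 15. The first-week share, 17.6%, compares with 16.6% of all genes, and the share from day 0 to day 15, 29.4%, with 23.9%. IDH2, the most abundant of the 17, stood at 635.2 to 691.3 TPM on day 0, at 520.6 to 794.5 TPM on day 7 and at 629.1 to 663.1 TPM on day 15. D2HGDH, which clears the TET inhibitor D-2-hydroxyglutarate, was the 1 that rose, from 12.4 ± 1.37 to 20.8 ± 1.83 TPM (SD, n = 3 each; limma adjusted p = 0.0116).

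Many of these list results depended on single libraries. Over all genes of these lists, the lists of cell cycle genes included, and the 5 genes most like UHRF1, 92 results passed. Of these, 10 held in every alternative run in which the gene was still tested. For the first week, that was 21 runs for TYMS, 20 for BUB1B, CENPF and POLE, and 17 for NEIL3. NEIL3 dropped out of the test when a day 7 library was omitted. Leaving out day 0 replicate 6 lost 77 of the 92 (limma, adjusted p up to 0.190), day 0 replicate 4 lost 62 (up to 0.176) and day 0 replicate 5 lost 3 (up to 0.0670). Without day 7 replicate 2, 5 or 6, the losses were 46, 33 and 39 of 88 that were still tested (up to 0.204, 0.118 and 0.128), and without day 15 replicate 1, 2 or 6 they were 20, 12 and 33 of 92 (up to 0.118, 0.0801 and 0.126). After median-of-ratios scaling, 1 rose and 4 fell in the first week in each of the methyl donor and 2-oxoglutarate lists. With that scaling the counts from day 0 to day 15 were 1 up and 4 down in the methyl donor cycle and 3 up and 1 down among the 2-oxoglutarate genes. Over the whole table that scaling moved the calls of the same comparison from 678 up and 2255 down to 1889 up and 1934 down.

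Markers of other cell types differed between ages as well. Endothelial markers summed to 277 to 330 TPM on day 0, 375 to 446 TPM on day 7 and 245 to 294 TPM on day 15, and 2 of 9 rose and 1 fell in the first week. Fibroblast markers summed to 956 to 1481, 1688 to 2328 and 1251 to 1542 TPM, and 3 of 10 rose and 0 fell in that week. Both sums were highest on day 7 without overlap with the other ages, as UHRF1 was. Their part in the levels of the 9 genes was not tested. Pericyte and smooth muscle markers summed to 487 to 700 TPM on day 0, 360 to 467 TPM on day 7 and 300 to 325 TPM on day 15, and 1 of 9 rose and 2 fell (ACTA2 and TAGLN) in the first week. Adipocyte markers summed to 216 to 295, 56.1 to 117 and 161 to 183 TPM, and of 2 tested 0 rose and 1 fell (FABP4). Of the 10 macrophage markers 1 rose and 0 fell in the first week, and of 4 erythroid markers 1 rose and 0 fell. Over all genes tested 16.6% changed in that week. The marker shares were 33.3% (endothelial), 30% (fibroblast), 33.3% (pericyte and smooth muscle), 50% (adipocyte), 10% (macrophage), 25% (erythroid) and 20% (lymphocyte).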

How the data were processed

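RNA was sequenced from 9 left ventricle samples, frozen in liquid nitrogen, with a NucleoSpin extraction and stranded TruSeq mRNA libraries, per the labels' protocols. The authors deposited 1 table of TPM, and every column was used. The submitters' processing notes name Trimmomatic 0.33, HISAT2 2.0.5 and kallisto 0.43.1 but no role or order for them. No genome build or annotation is given in the sources used here, so no coordinates or sequences are printed. Of 22629 rows, 15095 are listed by symbol and 7534 by Ensembl identifier, of which 915 matched a table of gene names. TPM is a share of the library total, so the depth and counting error are unknown, and a change in a very abundant gene shifts all others.

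Rows with at least 1 TPM in at least 3 libraries (12268 genes) entered the fit as log2(TPM + 1), whose pseudocount of 1 understates changes of low genes. One mean per age was fitted with limma 3.58.1 in R 4.3.3 (mean-variance trend, 6 residual degrees of freedom). Each contrast, the first step minus the second step and the F test were adjusted by Benjamini-Hochberg over all genes, with a threshold of 0.05. Shares and values relative to the S phase genes were tested by exact permutation over the 3 ages (of the between-age sum of squares, without direction), adjusted over 7 values. The script was tested on simulated data.

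The members, gene lists and the rule for naming genes were chosen with earlier results of these data known. The rule takes from each list the most abundant gene and, per contrast, the up to 4 genes past the threshold with the smallest adjusted p, and the 5 genes closest to each member past the F test. CDCA7, DNMT3L, NPPA, ACTA2, TAGLN and FABP4 fall outside it and were picked once their values had been seen. Other settings tried were a pseudocount of 0.1 or 5, a filter at a mean of 5 TPM or none, 3 other scalings, a robust fit, a fit without the trend, weighted libraries, a fit to the 2 ages of a contrast, a replicate block, and each library omitted in turn. Their use on list counts and list genes was added after the data were seen. The result of 1 list gene is not reported here.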

Additional observations from a re-analysis of the deposited data

Results flagged for a closer look

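The members and the partner, reader, base excision, methyl donor and 2-oxoglutarate lists were searched for genes whose 2 steps differed. For 6 genes the change from day 0 to day 7 differed from that from day 7 to day 15 (limma test of the difference, adjusted over all genes). The S phase and mitosis lists were not searched. In them 14 of 31 genes (45.2%, LIG1 and PCNA among them) and 3 of 15 (20%) passed the same test, against 1.92% of all genes. UHRF1 had a first step minus second step of 3.42 on the log2 scale (adjusted p = 0.0261). LIG1 had 1.90 (adjusted p = 0.0330), NEIL3 1.86 (adjusted p = 0.0192), EZH2 1.83 (adjusted p = 0.0423) and PCNA 1.53 (adjusted p = 0.0423). These 5 genes were higher on day 7 than on day 0 and lower on day 15 than on day 7 in their means. Among them, NEIL3 reached 1 TPM only on day 7 and so entered the test only through that age. GADD45A had -1.54 (adjusted p = 0.0328), with a fall in the first week and similar levels of 8.61 ± 1.22 and 8.19 ± 0.588 TPM on day 7 and day 15 (SD, n = 3 each). The steps share the day 7 libraries, and this test was passed by 236 of 12268 genes.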

How the results depend on the processing

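The rise of UHRF1 held in every setting run. With 2 members past the test from day 0 to day 7, the count was 1 with a mean of at least 5 TPM, no filter, a pseudocount of 0.1 or the replicate block, and 3 with the rescaled TPM (UHRF1, DNMT1 and DNMT3B). Under quantile normalization it was 2, with DNMT1 in place of DNMT3B. With 1 past the contrast of steps, it was 3 with library weights, 2 with the rescaled TPM, and 0 with no filter or the block. With 1 past the F test, it was 4 with library weights and 2 with quantile normalization or the rescaled TPM. Library weights gave 3 from day 7 to day 15 and 2 from day 0 to day 15, where 0 passed. The weights (limma's gene-by-gene method, since its default did not converge) were 6.42 for day 15 replicate 6 against 0.394 and 0.578 for replicates 1 and 2. Leaving out each library gave 1 to 2, 0 to 1 and 0 to 1 members in the 3 contrasts, 0 to 1 for the steps and 1 to 3 for the F test (3 without day 0 replicate 5).

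Between day 7 and day 0, leaving out each library gave a UHRF1 share difference of 30.1 to 45.4 percentage points, a DNMT1 share difference of 2.58 to 8.52, and log2 differences relative to S phase genes of 1.04 to 1.37 (UHRF1), -0.73 to -0.39 (DNMT1) and -0.99 to -0.67 (HELLS, -0.80 and an adjusted p of 0.0375 by exact permutation against the mean of the list). The TET3 share difference ran from -2.10 (without day 0 replicate 5) over -0.477 (without day 7 replicate 6) to 6.91. The log2 ratio of summed UHRF1, DNMT1 and HELLS to the TET genes was 2.69 ± 0.984, 2.94 ± 0.646 and 2.68 ± 0.187 on the 3 ages (SD, n = 3 each), and its first step ran from -0.087 (without day 0 replicate 4) and -0.083 (without day 7 replicate 2) to 0.81.

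Signs turned only where no test passed. From day 0 to day 7, DNMT3A was -0.017 with library weights and ran from -0.059 (without day 7 replicate 6) over -0.031 (without day 0 replicate 5) to 0.17 over the omissions, and HELLS was -0.027 with quantile normalization, -0.041 with the block and -0.018 (without day 0 replicate 4) to 0.25 over the omissions. From day 0 to day 15, DNMT3B was -0.11 with the block, TET2 was 0.051 (median-of-ratios), 0.13 (block), 0.087 (rescaled) and -0.30 (without day 0 replicate 5) to 0.0079 (without day 0 replicate 6) and 0.0090 (without day 15 replicate 1) over the omissions, and UHRF2 was 0.12 (median-of-ratios), 0.069 (quantile) and 0.15 (rescaled). The cause was not tested.

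Same-numbered libraries of different ages had correlations of their deviations from -0.213 to 0.170, so the numbers were not taken as pairs. With the replicate block, genes past the test went from 2031 to 857 (day 0 to day 7), from 21 to 126 (day 7 to day 15) and from 2933 to 919 (day 0 to day 15). Over the alternatives, the whole-table count ran from 372 (without day 0 replicate 6) to 3799 (median-of-ratios) for day 0 to day 7, from 0 to 1324 (library weights) for day 7 to day 15, and from 786 (without day 0 replicate 6) to 5272 (library weights) for day 0 to day 15. DNMT3B, TET1, TET3 and HELLS lie near 1 TPM, and the depth behind their values is unknown.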
